A study of Drosophila melanogaster with 4 samples.

Results

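The Iroquois complex of Drosophila melanogaster is a cluster of 3 homeobox genes on chromosome arm 3L, araucan (ara), caupolican (caup) and mirror (mirr). Hairy-bound chromatin across the cluster was described from a deposited list of Hairy peaks obtained by chromatin immunoprecipitation and sequencing (ChIP-seq) of embryos. Members were all peaks on 3L whose midpoint lay between 12550001 and 12720000 on Release 5 of the genome, a window of 170 kb. This rule gave 32 peaks of the 1519 on 3L and of the 8958 in the whole list. The members were chosen by peak position alone, and the locus was proposed with results of the list in view, so the number of peaks and their spacing are given as descriptions with no test.

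The series holds 2 libraries of Hairy ChIP DNA and 2 libraries of input DNA, all from embryos labelled as 0 to 8 h old, whereas the collection protocol names a laying of 8 to 16 h. Whole embryos, of unstated sex, came from 1 strain called Y cn bw sp. Both groups share a genotype with the alleles y[1] and oc[R3.2], then Gr22b[1] and Gr22d[1], then cn[1] with CG33964[R4.2], bw[1] and sp[1], and finally LysC[1] and lab[R4.2] together with MstProx[1], and GstD5[1] with Rh6[1]. The antibody, KW3-h-D1, was a rabbit polyclonal serum against a peptide of Hairy. Each line of the list gives the bounds and the score of 1 peak, with nothing for single libraries, so depth is unknown and replicate error could not be given. Scores are those the authors deposited, on a scale that the list does not name, and were used to rank and describe peaks within the list.

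Hairy is a basic helix-loop-helix repressor that recruits the corepressor Groucho. It is the product of a pair-rule gene, one of the genes that divide the early embryo into segments, and it later limits where sensory bristles form by repressing the proneural gene achaete. The Iroquois genes encode homeodomain proteins of the TALE class. In the imaginal discs, ara and caup act as prepattern genes that promote expression of achaete and scute, and all members of the complex help to set dorsal identity in the eye. They are also transcribed in patterns in the embryonic ectoderm, and ara and caup in part of the body wall muscles.

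In the RefSeq annotation, which is for Release 6, the protein-coding genes follow each other on 3L in the order sowah, ara, caup, mirr, SmD1. The symbols of all 3 Iroquois genes were matched there. SmD1 encodes a core protein of the spliceosome, and sowah is a neighbour of Iroquois genes in many animals. No other protein-coding gene lies between ara and mirr. The annotation places 4 long non-coding RNA genes between caup and mirr and none between ara and caup. Coordinates were not carried over between releases, so the order of the genes is known but no peak was assigned to any of them, and whether the window covers the whole of each gene was not checked.

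Hairy peaks were packed about 3 times as densely in the Iroquois window as on the arm as a whole. The window held 188.2 peaks per Mb, against 61.9 over 3L up to its last peak, a ratio of 3.04. It made up 0.693% of that length and held 2.11% of the peaks of the arm. Among the 143 complete windows of 170 kb laid end to end along 3L, it ranked 2 by peak number. The Iroquois window was placed on its locus, whereas the others followed at fixed steps that can split dense regions. Windows with at least 32 peaks were 1.40% of all windows, that is the Iroquois window and 1 other. The 142 other windows had a median of 9 peaks, quartiles of 6 and 14.8 and a range from 0 to 38. Peaks covered 9.27% of the Iroquois window, the third highest share, against a median of 2.71% and a highest share of 11.8% in the others.

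**Figure D1:**
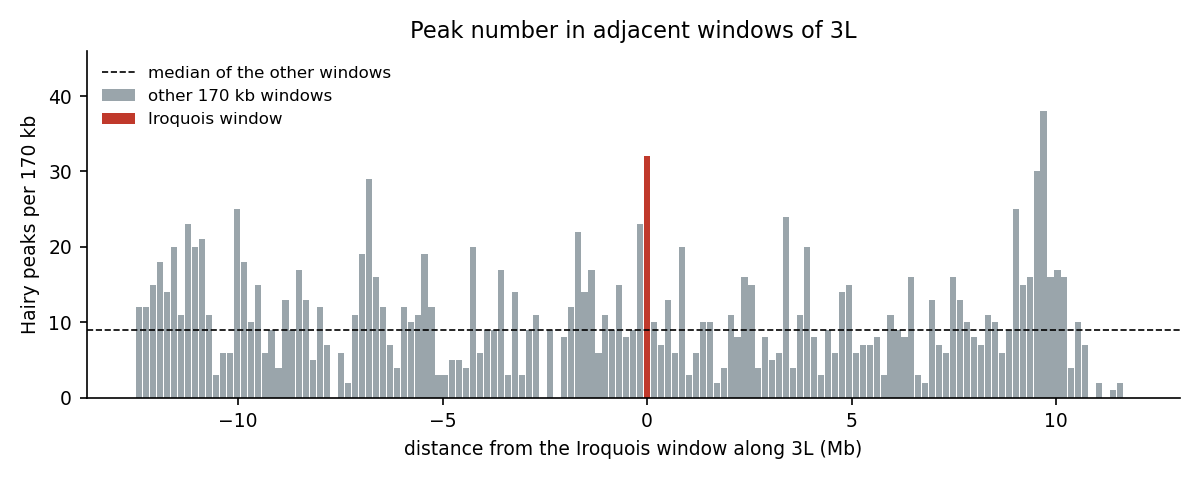
Number of Hairy peaks in each adjacent 170 kb window of 3L (vertical axis) against the distance of that window from the Iroquois window in Mb (horizontal axis). The Iroquois window (red, 32 peaks) stands well above the dashed median of the other windows (9 peaks), and the tallest grey bar, 9.69 Mb to the right, holds 38.

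The density was not shared equally by the surroundings. The 170 kb to the left of the window held 23 peaks and ranked 8 on the arm. The 170 kb to the right held 10 peaks, close to the arm's median, and ranked 64. Both neighbouring windows lacked peaks of 1 kb or more, as is common, since the median number of such peaks in the other windows was 0. Their highest scores were 25.73 on the left and 27.26 on the right, against 52.30 in the Iroquois window, which holds more peaks. Of the 136 other windows with a peak, 12 had a higher top score than the Iroquois window.

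The peaks at the bounds of the rule showed that the left bound falls in sequence with no peak, and the right bound less so. The first member lay at 12564560 to 12564992 with a score of 9.85, and the last peak before it, at 12532718 to 12533179, scored 14.76. These midpoints were 31.8 kb apart, more than any distance between neighbouring members. The last member lay at 12701175 to 12702138 with a score of 27.87, and the next peak, at 12722720 to 12722958, scored 10.46 and was 21.2 kb away. It fell only 2.84 kb outside the rule. Beyond it, peaks at 12726639 to 12726958 and 12727664 to 12728126 scored 19.64 and 27.26. Moving the bounds inwards by 10 kb at each end removed no member, and moving them outwards added these 3 peaks, which gave 35.

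Single peaks of the locus were of ordinary strength for the arm, although a few were strong. Member scores ran from 6.60 to 52.30, with quartiles of 11.2 and 18.6 and a median of 12.96. The median of the 1487 other 3L peaks was 12.82. Of the 114 other windows with at least 5 peaks, 57 had a lower median score and 57 a higher one. High scores were somewhat more frequent among the members than on the arm, by a few peaks and with no test. Peaks at or above the upper quartile of 3L (a score of 17.32) were 25.1% of the arm's peaks and numbered 11 of the 32 members (34.4%). The strongest 10.0% of the arm's peaks, by definition those scoring 24.21 or more, included 6 of the 32 members (18.8%). Peaks at or under the lower quartile of 10.15 were 25.8% of the arm's peaks and 7 of the members (21.9%), near the arm's share.

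Widths of the members were also close to those of the arm. Member widths ranged from 201 to 1570 bp. Their median was 412.5 bp and their quartiles were 304 and 546.5 bp, against a median of 380 bp for the other 3L peaks. Among the 114 other windows with at least 5 peaks, 67 had a smaller median width and 46 a larger one. Peaks of 1 kb or wider were 6.85% of the 3L peaks and numbered 2 of the 32 members. Peaks of 300 bp or narrower were 32.0% of the 3L peaks and 8 of the members. Set among the other windows of 3L, the Iroquois window thus ranked near the top in number of peaks and near the middle in median width and median score.

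**Figure D2:**
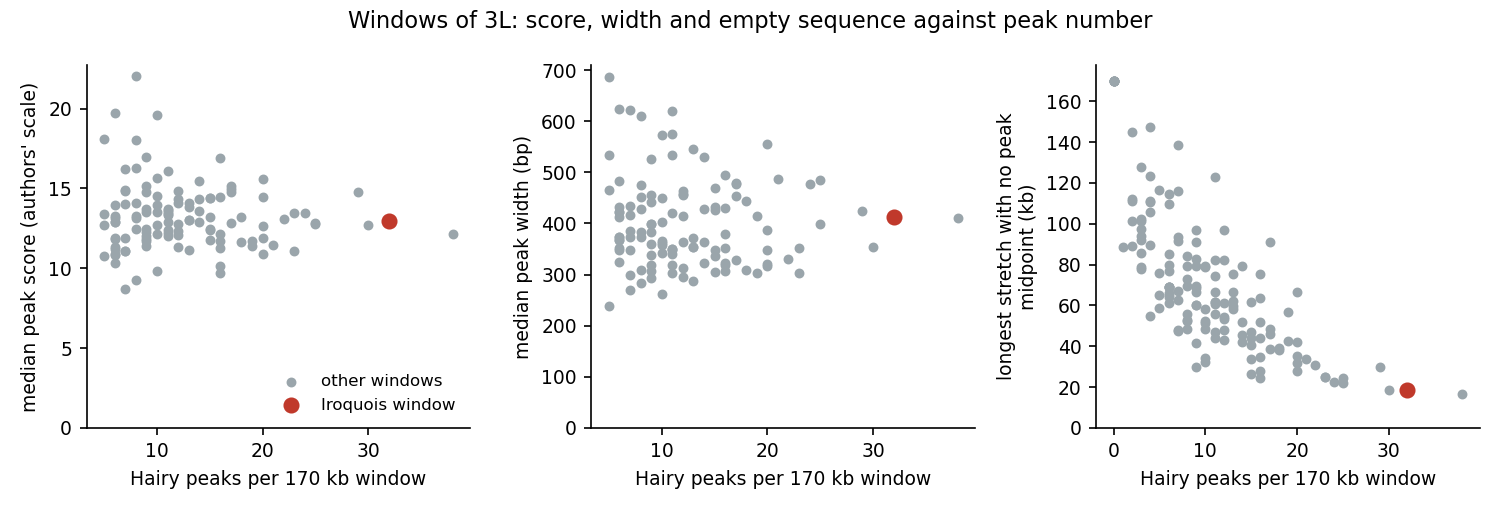
Each point is a 170 kb window of 3L, placed by its number of Hairy peaks (horizontal axes) and by its median peak score on the authors' scale, its median peak width in bp, or its longest stretch with no peak midpoint in kb (vertical axes); the first 2 panels show windows with at least 5 peaks. The Iroquois window (red) lies near the middle of the score and width ranges (12.96 and 412.5 bp) and near the lower end of the empty stretches (18.3 kb).

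The strongest member of the Iroquois window was a broad peak at 12685478 to 12687047. It was 1570 bp wide with a score of 52.30, which ranked 13 among the 1519 peaks of 3L by score and 24 by width. The second strongest, at 12689353 to 12690827, was 1475 bp wide and scored 40.40. It ranked 30 on the arm by both measures. These were the only members of 1 kb or more, and their midpoints lay 3.83 kb apart, with a peak of 422 bp and a score of 17.34 between them at 12688812 to 12689233. The third strongest member, at 12701175 to 12702138, was the third widest too, at 964 bp, and scored 27.87. The 3 strongest peaks of the window therefore lay in its right part, within 16.7 kb from the first start to the last end.

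The next strongest members lay in the left part of the window. A pair of peaks had the same score of 27.26, one at 12603360 to 12603897 (538 bp) and one at 12620706 to 12621369 (664 bp). That value was shared by 5 peaks on 3L. The peak at 12573185 to 12573756 scored 24.62 over 572 bp, and the peak at 12609939 to 12610669 scored 22.07 over 731 bp. Scores of 20.04, 18.07 and 17.97 followed, at 12570464 to 12571105, at 12602456 to 12602890 and at 12578846 to 12579354. The 10 highest-scoring members were thus 3 peaks in the right part and 7 in the left part, and none lay between them.

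The members fell into 4 runs when the chain was broken wherever neighbouring midpoints were over 10 kb apart, a distance chosen after the positions were seen. The first run held 6 peaks between 12564560 and 12588444, set apart from each other by 2.69 to 6.01 kb, with scores from 9.85 to 24.62 and a median width of 516.5 bp. The second held 19 peaks over 63.2 kb, from 12602456 to 12665633, and was the longest, with scores from 6.60 to 27.26. The third held 5 peaks in 7.52 kb, from 12683312 to 12690827, including both broad peaks, with scores from 12.70 to 52.30, and peaks covered 54.2% of it. The fourth held 2 peaks, from 12700145 to 12702138. Breaks of 14.4, 18.0 and 10.2 kb separated the runs.

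Scores were uneven along the second run. From the peak at 12629509 to 12629803 onwards, 11 consecutive members scored below the 3L median of 12.82, the last of them being the first peak of the third run at 12683312 to 12683708. This stretch spanned 54.2 kb and was picked out after the scores were seen. Its scores ran from 6.60 to 12.70 with a median of 10.56. The 15 members to its left had a median of 16.48 and the 6 to its right a median of 22.6. Because the stretch was chosen for low scores, higher medians on either side are partly set by that choice. Peaks below the 3L median were 50.0% of the arm's peaks and 16 of the 32 members, so the window held no surplus of weak peaks, but 11 of the 16 stood side by side. Along the whole of 3L, peaks below the median formed 352 unbroken runs with a median length of 2 peaks. The run in the Iroquois window was the longest of them, and no other had 11 or more. It was picked by these same scores, so its rank is a description. Whether a longest run of 11 is unusual among 352 runs was not tested. The peak that ended it scored 14.41 and was 210 bp wide.

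The weak stretch was also made of narrow peaks. The median width was 271 bp in the stretch, 509 bp to its left and 693 bp to its right. Of the 8 members of 300 bp or less, 7 lay in the stretch, 1 to its right and none to its left. The 3 narrowest members were the peaks at 12631573 to 12631773 (201 bp, the smallest width in the list, score 11.72), 12683923 to 12684132 (210 bp, score 14.41) and 12632712 to 12632928 (217 bp, score 11.46). The weakest member, at 12645018 to 12645246, scored 6.60, and 99.3% of the 3L peaks scored higher. Narrow peaks went with low scores elsewhere too. The 743 other 3L peaks below the median score had a median width of 292 bp.

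**Figure D3:**
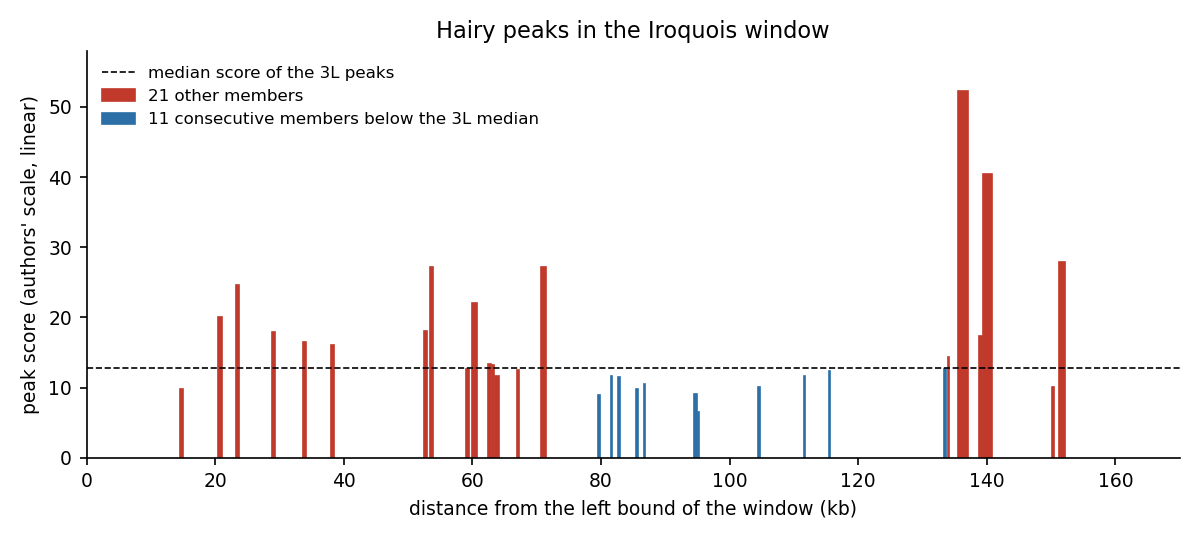
Score of each of the 32 members on the authors' linear scale (vertical axis) against the distance of its midpoint from the left bound of the window in kb (horizontal axis), with each bar as wide as its peak plus a thin outline. The 11 consecutive members below the dashed 3L median of 12.82 (blue, 6.60 to 12.70) lie between 15 members on the left and 6 on the right, where the highest bars reach 52.30 and 40.40.

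Across the 32 members, score and width were correlated with a Spearman rho of 0.74 and, on log2 values, a Pearson r of 0.84. For the 1487 other 3L peaks the values were 0.65 and 0.64. These correlations are across peaks of 1 list, which share libraries and are not independent. Without the 2 broad members the values were 0.68 and 0.72, against 0.61 and 0.58 for the other 3L peaks under 1 kb. Within classes of width, the 10 members of 501 to 999 bp had a median score of 21.1, against 16.9 for 393 other 3L peaks of that width. The 12 members of 301 to 500 bp had a median of 12.6, and so had the 514 other 3L peaks of that width. The 8 members of 300 bp or less had a median of 11.6, against 10.1 for 478 others. Both broad members scored above the median of 22.9 for the 102 other 3L peaks of 1 kb or more, although some of those reached 126.5.

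Neighbouring members were closer together than neighbours on the arm at most distances, but not at the shortest. The 31 distances between neighbouring member midpoints had a median of 2.76 kb, quartiles of 1.19 and 5.83 kb and a range from 0.431 to 18.0 kb. The 1518 distances along 3L had a median of 6.03 kb, an upper quartile of 17.1 kb and a maximum of 359.5 kb. Distances over 10 kb were 37.6% of those on the arm and 3 of the 31 in the window, and distances over 20 kb were 21.7% on the arm and absent between members. Among the 114 other windows with at least 5 peaks, 12 had a smaller median spacing than the Iroquois window. By contrast, only 1 of the 142 other windows held more peaks.

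Counted by nearest neighbour, the members were near the arm's share within 1 kb and above it at longer distances. A neighbour within 1 kb was found for 25.0% of 3L peaks and for 9 of the 32 members (28.1%). Within 2 kb it was found for 46.1% of 3L peaks and for 19 members (59.4%). Within 5 kb the values were 69.0% and 30 members (93.8%), and within 10 kb they were 84.1% and all 32 members. Of the 114 other windows with at least 5 peaks, 19 also reached 100% within 10 kb. Density and distance are linked, since more peaks in windows of equal size leave less sequence per peak. Windows with similar numbers of peaks could still differ in median spacing, and what set such differences was not tested. Median spacing was 4.89 kb in the window from 22070001 to 22240000, with 30 peaks. It was 2.07 kb in the window from 5750001 to 5920000, with 29 peaks.

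**Figure D4:**
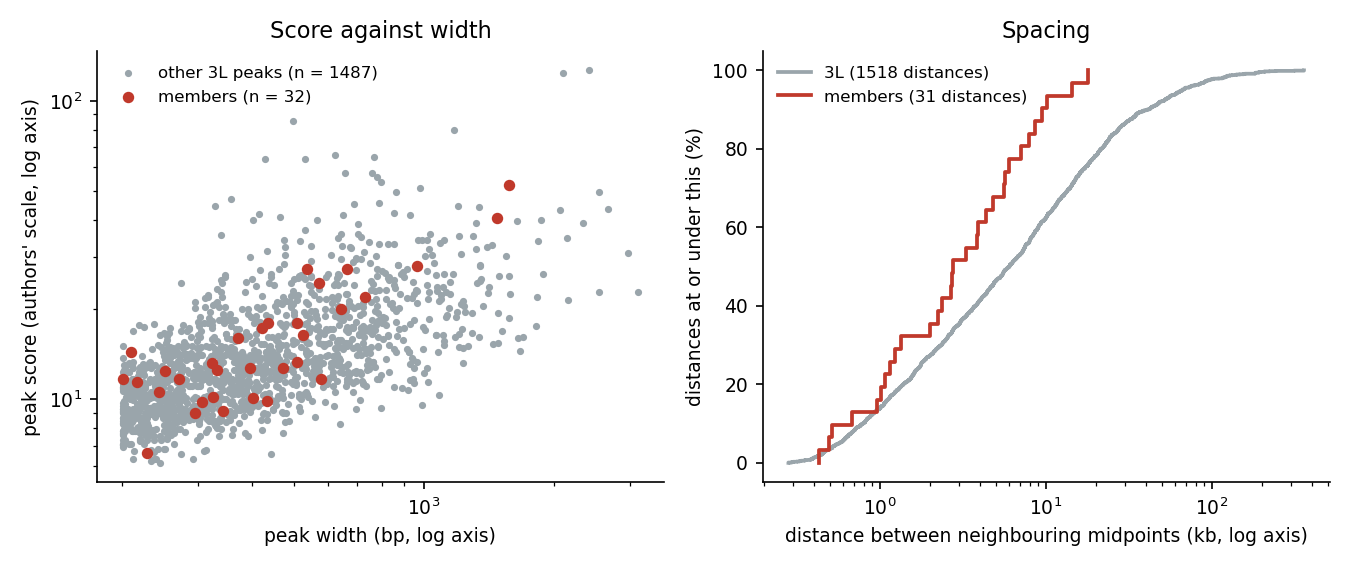
Left, peak score on the authors' scale against peak width in bp, both on log axes, for the 32 members (red) and the 1487 other 3L peaks (grey). Right, percentage of distances between neighbouring peak midpoints (kb, log axis) at or under each value, for the 31 distances between members (median 2.76 kb) and the 1518 on 3L (median 6.03 kb); the curves run together below about 1 kb and separate above it.

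Few parts of the window were empty. Of its 17 successive 10 kb pieces, 13 held a midpoint, against a median of 6 in the other windows, of which 4 had more filled pieces and 1 had as many. The longest stretch with no midpoint was 18.3 kb, at the right end of the window, and only 1 of the 142 other windows had a shorter one. Stretches were counted up to the window's bounds, and the next peak beyond the right bound was 21.2 kb from the last member. Windows with many peaks also had short longest stretches, 16.4 kb in the one with 38 peaks and 18.4 kb in the one with 30. The fullest piece, 12610001 to 12620000, held 5 midpoints, and peaks covered 24.1% of it. The piece from 12680001 to 12690000 held 4 midpoints, among them that of the highest-scoring member, and peaks covered 32.5% of it. The 4 empty pieces were those that start at 12550001, 12590001, 12670001 and 12710001.

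The tightest group of members, the most midpoints within 10 kb, had 6 peaks between 12609051 and 12617312. From left to right their scores were 12.70, 22.07, 13.35, 13.21, 11.66 and 12.54, so that 1 peak stood above 5 of similar strength. The widths were 472, 731, 508, 323, 577 and 333 bp. Elsewhere on 3L up to 8 midpoints fell within 10 kb, so this group was not the tightest of the arm. The 3 of these peaks from 12612429 to 12614139 were separated by gaps of only 77 and 226 bp.

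The list cannot tell whether close neighbours are separate bound regions or 1 region listed in pieces. Gaps of 500 bp or less separated 7 pairs of neighbours, from 77 to 469 bp. Joining them turned 13 members into 6 regions and left 25 regions in the window. The widest joined region, 2016 bp from 12688812 to 12690827, combined the second strongest member with the peak of 422 bp beside it. The others of over 1 kb were 12612429 to 12614139 (1711 bp), 12609051 to 12610669 (1619 bp) and 12602456 to 12603897 (1442 bp). After joining along the whole arm, 141 of the 142 other windows still had fewer regions than the 25 of the Iroquois window.

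On 3L, 3 other windows held 29 peaks or more. The fullest, from 22240001 to 22410000, held 38 peaks with a median score of 12.1, a highest score of 51.17 and a median width of 411 bp. Its neighbour from 22070001 to 22240000 held 30 peaks with a median score of 12.7 and a highest score of 123.5. The window from 5750001 to 5920000 held 29 peaks with a median score of 14.8 and a highest score of 34.69. The share of peaks with a neighbour within 5 kb was 84.2%, 80.0% and 82.8% in these windows, against 93.8% in the Iroquois window. The shares within 1 kb, however, were 28.9%, 30.0% and 37.9%, against 28.1%. Those within 2 kb were 71.1%, 60.0% and 69.0%, against 59.4%, so the Iroquois window had the lowest of these shares at both distances. These are single counts with no test. In the next densest windows, 2520001 to 2690000 and 21560001 to 21730000 with 25 peaks each, the share within 5 kb was 92.0% and 84.0%, and 7 of the 114 other windows with at least 5 peaks had a higher share than the Iroquois window.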

How the data were processed

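Sample titles give 2 ChIP libraries and 2 input libraries, which share 1 deposited list. Fixation was for 15 min in 1.8% formaldehyde, per the labels' protocols. Per the file headers, the deposited peak list uses FlyBase release 5, and each line names MACS as its source. The submitters' processing notes name the build BDGP5, MACS2, BWA, and CASAVA in its versions 1.7.0.3 and 1.7.0.2, with no role or order. How replicates were pooled, which control was used and which threshold are steps not given in the sources used here, and they decide which peaks are listed and how a region is cut into peaks. The deposited score of each peak was used as the authors gave it. Starts and ends are other deposited values of the authors, 1-based and inclusive.

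Peaks were assigned to windows by midpoint. Windows of 170 kb were laid end to end from the Iroquois window in both directions, up to the end of the last 3L peak. Medians were taken in windows with at least 5 peaks. Shares of 3L peaks include the members unless other peaks are named. No statistical test was made. The members, lists and rules were chosen with earlier results of these data known. The peaks named were, by rule, the 10 with the highest scores, the 3 widest, the 3 narrowest, those of the tightest 10 kb and those at the bounds; the weakest member, the member between the broad peaks and those that bound the runs, the weak stretch and the joined regions were added after their values were seen. The window counts were tested on 5 simulated lists, and all 5 were recovered. No sequence is shown because no sequence of Release 5 was used here. Values were computed with pandas 2.3.3 and numpy 2.4.6 in Python 3.11.15, intervals with scipy 1.17.1 and figures with matplotlib 3.10.9.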

Additional observations from a re-analysis of the deposited data

How the results depend on the processing

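Each result was expressed as the percentage of comparison windows with a lower value, and an alternative was taken to move it when it left the exact 95% binomial interval of that percentage, which covers counting error only. Alternatives were shifted windows, windows of 5 arms (2L, 2R, 3L, 3R and X), joining of peaks within 500 bp, peaks at or above the list's median score, bounds moved by 10 kb either way, removal of the last 3 Mb of 3L and, added after seeing the data, comparison windows with at least 10 peaks. Over them the percentage ran from 98.1 to 100 for peak number and from 97.0 to 99.4 for coverage. The 98.1% was that over 5 arms, where 681 of the 694 other windows held fewer peaks and 3 held as many. Without the last 3 Mb, 100% of the other windows held fewer peaks, since the fullest window lies there. For median width, 58.8% became 73.0% after joining and 38.0% among the stronger peaks. For median spacing, 10.5% became 21.5% over 5 arms. For median score, 50.0% became 69.0% among the stronger peaks, of which the window held 16. The 35 other values stayed within their intervals. No paired analysis was possible because the list carries no value per library, and no replicate could be left out. The read depth is unknown, so sequence without a peak is sequence that did not pass the authors' threshold.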
